A study of Sus scrofa with 12 samples.

Results

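The aminoacyl-tRNA synthetases of porcine oocytes were taken as the genes whose symbol joins an amino acid letter to ARS, ARS1, ARS2, ARSA or ARSB, together with EPRS1. The scaffold genes AIMP1, AIMP2 and EEF1E1 were not counted among them. The rule found 36 of the 31908 listed genes, 19 coding for cytosolic enzymes and 17 for mitochondrial ones. No identifier matched FARSB, the second subunit of the cytosolic phenylalanine enzyme, and it was not analysed here. Oocytes from antral follicles of prepubertal gilts were sequenced before in vitro maturation (0h) and after 22h or 46h of it, in 12 libraries, 4 for each stage, each from a pool of 20 oocytes. The 0h oocytes, at the germinal vesicle stage, were taken before culture. The 22h and 46h oocytes had matured inside their cumulus complexes in a TCM199-based medium with porcine follicular fluid, EGF, PMSG, HCG, cysteine, pyruvate, glucose and antibiotics. All oocytes were freed of cumulus cells with hyaluronidase before lysis. The breed is not given in the sources used here. Nothing states that the replicates came from separate ovaries or cultures, so p-values measure the spread between these libraries, which may be technical.

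A synthetase joins one amino acid to the tRNAs that carry it, and so supplies the ribosome and reads the genetic code. Most amino acids have a cytosolic enzyme, for proteins made from nuclear genes, and a separate mitochondrial enzyme, itself coded in the nucleus, for the few proteins coded by mitochondrial DNA. GARS1 and KARS1 each serve both compartments, and EPRS1 joins the glutamate and the proline enzyme in a single chain. A set of cytosolic enzymes is held together in the multisynthetase complex by the scaffold proteins AIMP1, AIMP2 and EEF1E1. A fully grown oocyte makes little new RNA and lives on stored transcripts, whose poly(A) tails are shortened or lengthened as meiosis resumes.

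The authors' values are FPKM, which divide a gene's fragments by its transcript length and by the total of its library. This puts genes on one scale, but does not correct for differences between genes in priming at the poly(A) tail or in amplification. Rankings of genes and shares of summed FPKM carry that limit. A comparison between libraries also depends on the scaling. The median-of-ratios size factors were between 0.995 and 1.29 at 0h, between 1.06 and 1.14 at 22h and between 0.831 and 0.924 at 46h. Reverse transcription was primed at the poly(A) tail, so a change in transcript number and a change in tail length cannot be told apart, nor can a change per oocyte and a change in the rest of the library. Total FPKM lay between 697468 and 802184 in the 12 libraries, and the read depth behind it is unknown. The share of the 13 protein genes of mitochondrial DNA lay between 1.79% and 3.76% at 0h, between 8.06% and 12.02% at 22h and between 12.8% and 16.7% at 46h. Within a stage the correlation between libraries was 0.934 at the lowest, between replicates 2 and 4 of 0h. Oocyte markers (12 of 14 matched) summed to between 13817 and 19324 FPKM at 0h, between 16434 and 23372 at 22h and between 4009 and 7478 at 46h. Cumulus and granulosa markers (13 of 16 matched) summed to 2.37 to 7.58, 2.94 to 4.65 and 3.95 to 6.20 FPKM, mostly STAR, while INHA, NR5A1, AMHR2 and LHCGR were listed at 0 in every library. Their part in the results was not tested.

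Most synthetase transcripts were scarce and a few were abundant. Of the 36 genes, 24 had a mean of at least 1 FPKM at 0h, 22 at 22h and 15 at 46h, and 4, 3 and 3 had a mean of at least 100 FPKM. RARS2, the mitochondrial arginine enzyme, had the highest mean at every stage, 260 ± 113 FPKM at 0h, 383 ± 103 at 22h and 796 ± 82.8 at 46h (SD, n = 4). At 0h EPRS1 followed with 195 ± 28.7 FPKM, RARS1, the cytosolic arginine enzyme, with 122.6 ± 44.0 and KARS1, the lysine enzyme, with 104 ± 18.5, and each of these 4 overlapped the next in its library values. At 46h RARS2 was followed by KARS1 with 245 ± 37.1 FPKM and EPRS1 with 105 ± 7.78, and RARS1 had 32.3 ± 8.38. None of these 4 overlapped another at 46h, whereas RARS1 and TARS1, the cytosolic threonine enzyme with 27.6 ± 4.07 FPKM, did.

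**Figure D1:**
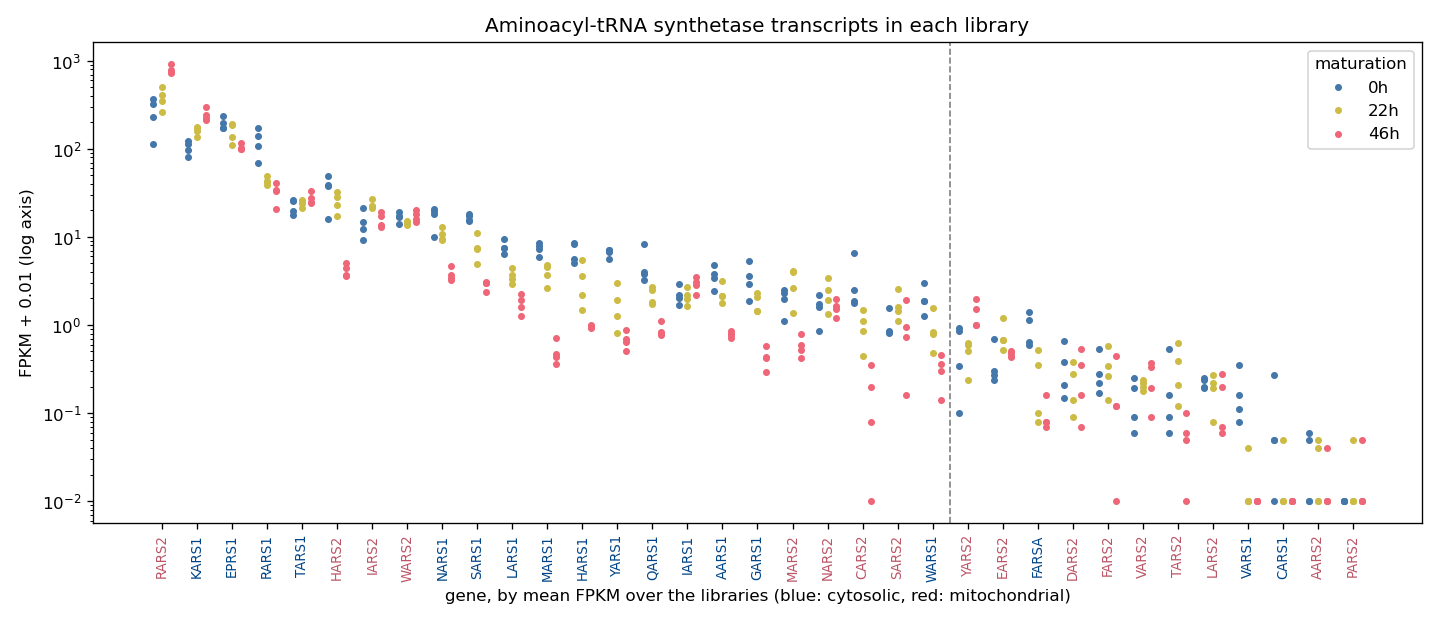
FPKM of 35 of the 36 synthetase genes (log axis, with 0.01 added so that 0 can be drawn) in each of the 12 libraries, 1 point per library, ordered by mean FPKM; the dashed line parts genes tested from the 12 under a mean of 1 FPKM. RARS2 and KARS1 are highest at 46h, while most genes in the middle of the range are lowest at 46h.

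The summed FPKM of the 36 genes was between 722 and 1011 at 0h, between 800 and 1047 at 22h and between 1244 and 1460 at 46h. The cytosolic sum was between 507 and 589 at 0h, between 457 and 480 at 22h and between 467 and 529 at 46h. The mitochondrial sum was 215 to 422, 339 to 580 and 777 to 959 FPKM, but without RARS2 it was 52.0 to 101, 62.1 to 83.5 and 38.5 to 50.7. RARS2 alone therefore made up between 15.8% and 36.6% of all synthetase FPKM at 0h, between 32.8% and 48.6% at 22h and between 56.4% and 62.8% at 46h. The higher sum at 46h was thus a higher value of few genes, beside lower values of many.

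**Figure D2:**
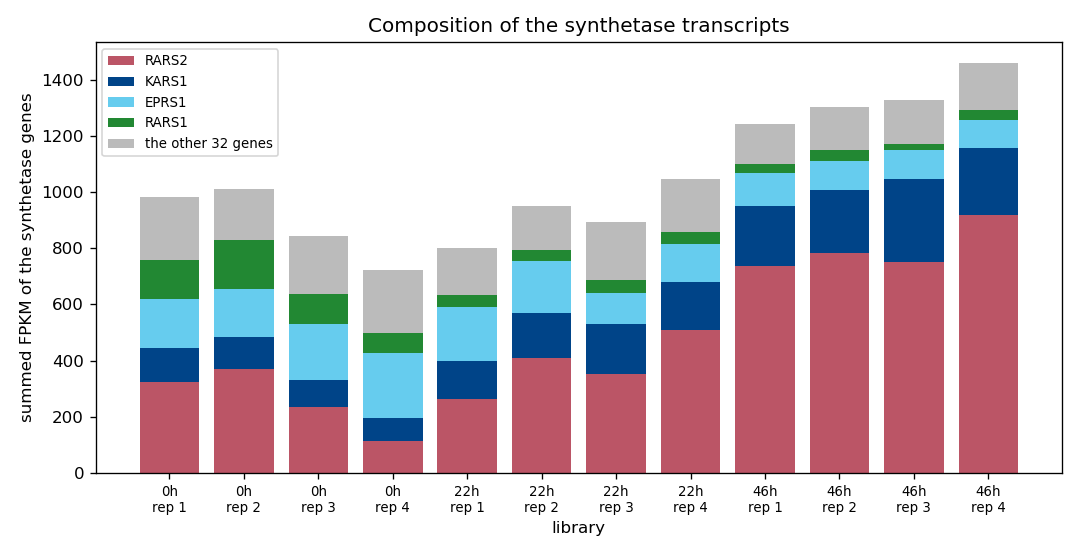
Summed FPKM of the 36 synthetase genes in each library (bars from 0), split into the 4 genes with the highest mean FPKM and the other 32. The RARS2 segment is largest in the 46h libraries, at 736 to 917 FPKM.

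Between 0h and 46h, the whole span of maturation, 18 of the 24 synthetase genes tested were past the thresholds, an adjusted p under 0.05 and a fold change over 1.5 in limma on log2(FPKM + 1). Of these, 3 rose, RARS2 and KARS1 among them, and 15 fell. Among all 7013 genes tested, 55.9% were past the thresholds, 16.8% higher and 39.1% lower. The median log2 fold change was -1.26 over the synthetase genes and -0.25 over all genes, and -1.97 and -0.31 with a pseudocount of 0.1. Over the 11 synthetase genes whose mean over all libraries reached 5 FPKM the median was 0.03, with 3 higher and 5 lower. Over all genes reaching that mean it was -0.09. That mean includes the 46h values, so the fall itself decides in part which genes are kept. HARS1, LARS1, MARS1 and YARS1, with means of 6.60 to 7.71 FPKM at 0h, were left out. This median thus cannot show whether the fall was limited to scarce enzymes. The 4 and 4 libraries did not overlap for the same 18 genes, against 57.3% of all genes in either direction. Under quantile normalization, which put the median of all genes at 0.37, 8 synthetase genes were higher and 12 lower, with a median of -0.61. There MARS2 (-0.20), WARS1 (-0.41) and EPRS1 (-0.57) no longer passed, while IARS1, TARS1, IARS2, NARS2 and WARS2 passed as higher (0.62 to 0.98). Under median-of-ratios scaling 4 synthetase genes were higher and 14 lower. TARS1 passed as higher there (0.62, limma adjusted p = 0.0121) and EPRS1 did not pass.

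The cytosolic and the mitochondrial enzymes are described in turn, beside the 55.9% of all genes past the thresholds. Of 16 cytosolic genes tested, 2 rose and 12 fell (87.5% past), with a median log2 fold change of -1.58. Of 8 mitochondrial genes tested, RARS2 rose and HARS2, CARS2 and MARS2 fell, with a median of -0.06, and this share (4 of 8 past) was near that of all genes. The other 4 mitochondrial genes did not pass, IARS2 at 0.17 (95% interval -0.30 to 0.65), WARS2 at 0.03 (-0.29 to 0.35), NARS2 at 0.01 (-0.45 to 0.46) and SARS2 at -0.12 (-0.66 to 0.42). Among cytosolic genes, IARS1, for isoleucine, at 0.29 (-0.07 to 0.65) and TARS1 at 0.31 (-0.05 to 0.66) were the ones not past the thresholds. The difference between the compartments as such was not tested. The 8 enzymes of the multisynthetase complex (2 higher, 5 lower, median -1.22) and the 8 cytosolic enzymes outside it (0 higher and 7 lower by limma, 1 more not past, median -1.74) both fell for the most part. Of the structural classes, 1 gene was higher and 8 lower of 12 in class I (median -1.37), and 2 were higher and 6 lower of 11 in class II (median -1.35), a difference that was not tested.

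**Figure D3:**
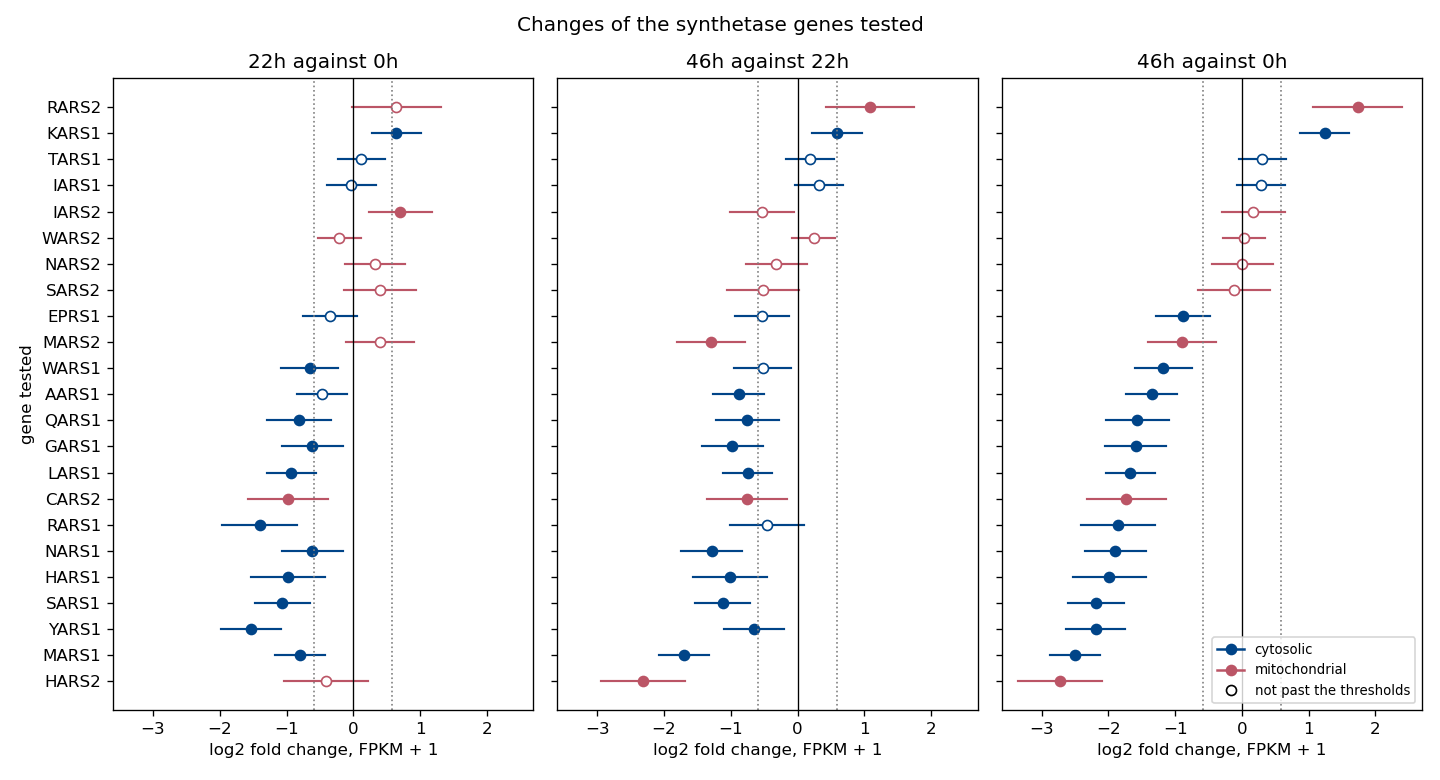
Log2 fold change of FPKM + 1 for 23 of the 24 synthetase genes tested in the 3 comparisons, with 95% intervals from limma; filled points are past the thresholds and dotted lines mark a fold change of 1.5. At 46h against 0h, 15 genes lie to the left of those lines as filled points, and RARS2 and KARS1 to the right.

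Of the 7 amino acids with both enzymes tested, arginine was the one whose genes moved furthest apart. RARS2 (ENSSSCG00000004303, chr1:55906508-55982094, minus strand) had 323, 370, 233 and 114 FPKM in the 0h libraries, 263, 409, 352 and 509 at 22h and 736, 782, 750 and 917 at 46h. RARS1 (ENSSSCG00000017015, chr16:55373739-55412076, minus strand) had 140, 173, 108 and 70.04 FPKM at 0h, 42.1, 38.7, 49.5 and 43.8 at 22h and 32.9, 40.9, 20.8 and 34.5 at 46h. Every 46h library was above every 0h and 22h library for RARS2, while for RARS1 every 0h library was above all others and the 22h and 46h values overlapped. RARS2 was 3.33-fold higher at 46h than at 0h (log2 1.73 ± 0.31 SE, limma adjusted p = 0.000204) and RARS1 3.62-fold lower (log2 -1.86 ± 0.26, adjusted p = 2.27e-05). Replicate 4 of 0h held the lowest value of both genes at 0h. The ratio of RARS2 to RARS1, taken within each library, was between 1.63 and 2.31 at 0h, between 6.24 and 11.6 at 22h and between 19.1 and 36.0 at 46h, so the stages did not overlap.

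The 300 bases around the start of each arginine gene, 250 before and 50 after, are shown as examples of promoters whose transcripts moved in opposite directions. They were read from the RefSeq assembly Sscrofa11.1, RARS1 at chr16:55412027-55412326 and RARS2 at chr1:55982045-55982344, both on the minus strand. Capitals mark CCGGAAG, a core that ETS factors bind, and CCAAT, the letters of the CCAAT box, on either strand.
RARS1: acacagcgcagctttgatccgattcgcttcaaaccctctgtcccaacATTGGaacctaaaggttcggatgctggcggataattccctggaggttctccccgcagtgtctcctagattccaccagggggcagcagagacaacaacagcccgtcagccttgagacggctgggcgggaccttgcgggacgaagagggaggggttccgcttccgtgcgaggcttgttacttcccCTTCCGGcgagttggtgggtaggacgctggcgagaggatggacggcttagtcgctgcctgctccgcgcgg
RARS2: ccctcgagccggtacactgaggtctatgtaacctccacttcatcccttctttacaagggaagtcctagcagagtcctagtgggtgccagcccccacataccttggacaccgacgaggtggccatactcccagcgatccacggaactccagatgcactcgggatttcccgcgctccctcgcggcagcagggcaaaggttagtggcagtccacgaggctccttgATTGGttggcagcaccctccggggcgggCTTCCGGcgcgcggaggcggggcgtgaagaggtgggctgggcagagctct
Each held one CCGGAAG and one CCAAT, read on the opposite strand (CTTCCGG and ATTGG). Of the 35 synthetase genes with a matched promoter, 12 held CCGGAAG and 19 CCAAT, against 2148 and 6917 (35.4%) of all 19530 promoters of that length. CCGGAAG was present in genes that rose (RARS2, KARS1) and in genes that fell (RARS1, HARS1, SARS1, LARS1, QARS1, GARS1 and WARS1) at 46h against 0h.

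RARS2 was also 1 of 3 synthetase genes with TTTTAT, the letters of a cytoplasmic polyadenylation element, in the last 100 bases of the annotated gene, beside AARS2 and MARS2. Of all 19530 genes, 2353 held it there on the sense strand. With the other form, TTTTAAT, counted too, 4 of 35 synthetase genes held an element, against 15.6% of all genes. LARS2, the mitochondrial leucine enzyme, held TTTTAAT, which starts 9 bases before its poly(A) signal AATAAA. It had 0.21 ± 0.03 FPKM at 0h and 0.14 ± 0.11 at 46h (SD, n = 4), under the filter. The RARS2 site lies at chr1:55906529-55906558 on the minus strand. Capitals show TTTTAT and the poly(A) signal ATTAAA, with 24 bases from the start of one to the start of the other.
RARS2 site: TTTTATtaagtgatttatcaacttATTAAA
MARS2, the mitochondrial methionine enzyme, has TTTTAT after its poly(A) signal and fell, while AARS2 was listed at 0.05 FPKM or less in every library. RARS2 starts 37 bases from ORC3, a subunit of the origin recognition complex on the opposite strand, which had 28.4 ± 6.47 FPKM at 0h and 19.2 ± 3.10 at 46h (SD, n = 4).

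KARS1, a member of the multisynthetase complex, was a cytosolic gene that rose. KARS1 (ENSSSCG00000002704) had 122, 114, 97.1 and 80.6 FPKM at 0h, 137, 159, 178 and 172 at 22h and 215, 226, 298 and 242 at 46h. No library of a later stage overlapped one of an earlier stage. KARS1 was 2.37-fold higher at 46h than at 0h (log2 1.24 ± 0.17 SE, limma adjusted p = 2.17e-05). KARS1 starts 23 bases from TERF2IP, a telomere protein gene on the other strand, which went from 82.7 ± 38.6 FPKM at 0h to 141 ± 29.4 at 22h (SD, n = 4; log2 0.86, limma adjusted p = 0.0264) and 7.32 ± 0.48 at 46h (log2 -3.21 against 0h, adjusted p = 1.26e-07). TERF2IP thus rose with KARS1 in the first interval and was lower at 46h than at 0h, where KARS1 was higher.

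Another abundant complex enzyme, EPRS1 (ENSSSCG00000010821), had 175, 172, 199 and 234 FPKM at 0h, 191, 185, 109 and 135 at 22h and 116, 103, 101 and 99.4 at 46h. Its 46h libraries were below all 0h libraries but overlapped those of 22h. EPRS1 was 1.84-fold lower at 46h than at 0h (log2 -0.88 ± 0.19 SE, limma adjusted p = 0.00101), a call lost under median-of-ratios scaling (-0.55) and quantile normalization (-0.57), where the fold was below the threshold. The ratio of KARS1 to EPRS1 within a library was between 0.345 and 0.697 at 0h, between 0.717 and 1.62 at 22h and between 1.85 and 2.96 at 46h.

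Among amino acids with both genes tested, the cytosolic and the mitochondrial gene both fell between 0h and 46h for histidine and methionine. For methionine this rests on MARS2 (log2 -0.89 ± 0.24 SE, limma adjusted p = 0.00429), whose call was lost under quantile normalization (-0.20, adjusted p = 0.494). HARS2 (ENSSSCG00000014376), the mitochondrial enzyme, had 37.5, 16.0, 39.4 and 49.9 FPKM at 0h, 28.8, 17.4, 32.5 and 22.9 at 22h and 4.46, 5.11, 3.63 and 3.64 at 46h. HARS1 (ENSSSCG00000014375, chr2:142387563-142401232, minus strand), the cytosolic enzyme, had 8.30, 8.49, 5.64 and 5.01 FPKM at 0h, 1.48, 2.19, 5.44 and 3.62 at 22h and 0.95, 0.98, 0.93 and 0.92 at 46h. For both genes the 46h libraries lay below all others and the 0h and 22h libraries overlapped. On the log2(FPKM + 1) scale HARS2 was 6.59-fold lower at 46h than at 0h (log2 -2.72 ± 0.29 SE, limma adjusted p = 1.62e-06), and HARS1 was 3.96-fold lower (-1.99 ± 0.26, adjusted p = 1.02e-05). In the RefSeq annotation HARS1 starts 46 bases from a gene model on the other strand whose product is named a probable mitochondrial histidine-tRNA ligase, a match to HARS2 by product name only. The HARS1 promoter, chr2:142401183-142401482 on the minus strand of Sscrofa11.1, holds those 46 bases and reaches into both genes, and is printed with CCGGAAG in capitals on either strand.
HARS1: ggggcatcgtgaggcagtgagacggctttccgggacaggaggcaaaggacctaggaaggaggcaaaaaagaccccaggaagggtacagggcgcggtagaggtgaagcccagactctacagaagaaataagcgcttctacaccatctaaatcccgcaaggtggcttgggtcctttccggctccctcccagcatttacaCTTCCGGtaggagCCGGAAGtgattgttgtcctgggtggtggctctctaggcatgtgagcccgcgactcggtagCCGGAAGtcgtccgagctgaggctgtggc
It held 3 copies of CCGGAAG, in either orientation, and neither of CCAAT and TGATGNAA.

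MARS1, the cytosolic methionine enzyme of the complex, had 7.87, 5.95, 8.45 and 7.31 FPKM at 0h, 4.50, 2.60, 4.74 and 3.68 at 22h and 0.35, 0.46, 0.71 and 0.42 at 46h. The 3 stages did not overlap. On the log2(FPKM + 1) scale MARS1 was 5.64-fold lower at 46h than at 0h (log2 -2.50 ± 0.17 SE, limma adjusted p = 1.8e-08). Its mean FPKM itself was 15.2-fold lower, 7.395 at 0h and 0.485 at 46h. Its gene overlaps DDIT3 and ARHGAP9 on the opposite strand, and the libraries carry no strand, so their reads cannot be told apart where they overlap. DDIT3 had 75.4 ± 40.7, 30.01 ± 3.91 and 53.3 ± 5.78 FPKM and ARHGAP9 3.995 ± 2.20, 1.43 ± 0.48 and 0.20 ± 0.06 at 0h, 22h and 46h (SD, n = 4).

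SARS1, the cytosolic serine enzyme, had 17.3, 15.2, 18.2 and 15.4 FPKM at 0h, 7.23, 4.86, 11.1 and 7.40 at 22h and 2.36, 3.01, 3.04 and 2.99 at 46h. NARS1, for asparagine, had 21.0, 18.4, 19.6 and 10.02 FPKM at 0h, 9.50, 9.26, 12.8 and 10.9 at 22h and 3.40, 4.69, 3.25 and 3.72 at 46h. LARS1, the leucine enzyme of the complex, had 7.55, 6.32, 7.45 and 9.53 FPKM at 0h, 4.39, 3.28, 3.71 and 2.88 at 22h and 2.23, 1.57, 1.24 and 1.89 at 46h. The stages were apart for SARS1 and LARS1, while the lowest 0h library of NARS1, replicate 4, lay among the 22h values. On the log2(FPKM + 1) scale SARS1 was 4.55-fold lower at 46h than at 0h (log2 -2.19 ± 0.19 SE, limma adjusted p = 2.17e-07). On that scale NARS1 was 3.73-fold lower (-1.90 ± 0.21, limma adjusted p = 2.47e-06) and LARS1 3.19-fold (-1.67 ± 0.17, adjusted p = 9.5e-07). Their mean FPKM itself was 5.80-fold, 4.58-fold and 4.45-fold lower, in this order.

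YARS1, the cytosolic tyrosine enzyme, had 7.01, 5.61, 6.70 and 7.08 FPKM at 0h, 2.97, 0.80, 1.89 and 1.25 at 22h and 0.86, 0.63, 0.49 and 0.68 at 46h. GARS1, for glycine, had 2.92, 1.87, 3.56 and 5.37 FPKM at 0h, 2.29, 1.42, 2.09 and 1.44 at 22h and 0.56, 0.42, 0.41 and 0.28 at 46h. QARS1, the glutamine enzyme of the complex, had 3.95, 3.22, 3.79 and 8.33 FPKM at 0h, 2.51, 1.71, 2.68 and 1.80 at 22h and 0.81, 0.83, 1.10 and 0.75 at 46h. Most of the change of YARS1 fell in the first interval, and for GARS1 and QARS1 the highest 0h value was that of replicate 4. CARS2, the mitochondrial cysteine enzyme, shared this, with 1.87, 1.77, 2.46 and 6.51 FPKM at 0h, 1.11, 0.44, 1.46 and 0.85 at 22h and 0.19, 0.34, 0.00 and 0.07 at 46h. At 46h against 0h the log2 fold change was -2.19 for YARS1, -1.73 for CARS2, -1.59 for GARS1 and -1.57 for QARS1, with limma adjusted p from 4.7e-07 to 8.28e-05. Leaving out each library in turn gave 18 genes past the thresholds every time, replicate 4 of 0h included.

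The same amino acid could be compared in both compartments for 7 pairs of genes tested, by the log2 ratio of cytosolic to mitochondrial FPKM + 1 within each library. From 0h to 46h the ratio changed by -3.59 for arginine, -2.07 for serine, -1.91 for asparagine, -1.60 for methionine and -1.21 for tryptophan, each at the smallest p the exact two-sided permutation test allows (p = 0.0286, Benjamini-Hochberg 0.0462 over 21 tests, n = 4). It differed by 0.73 for histidine (p = 0.2) and 0.12 for isoleucine (p = 0.657, same exact test, n = 4). From 22h to 46h the ratio differed for 5 of 7 pairs, lower for 3 and higher for histidine and isoleucine, and from 0h to 22h it was lower for 3 of 7. With 0.1 FPKM added in place of 1, the same exact permutation test gave an adjusted p of 0.05 at the lowest, so 0 of 21 tests were under that level after adjustment and 12 before it. On that scale the difference from 0h to 46h was -3.63 for arginine, -2.42 for tryptophan and 0.26 for histidine, so that for the latter pairs its size depended on the pseudocount. With each library left out in turn and 1 FPKM added, it ranged from -3.72 to -3.43 for arginine, from -1.40 to -1.06 for tryptophan and from 0.42 to 1.17 for histidine. This comparison was chosen after the values were seen. How many other pairs of genes change their ratio was not computed, so these counts do not set the synthetase pairs apart. Among single genes, 28.9%, 48.6% and 57.3% had no overlap at 22h against 0h, 46h against 22h and 46h against 0h.

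**Figure D4:**
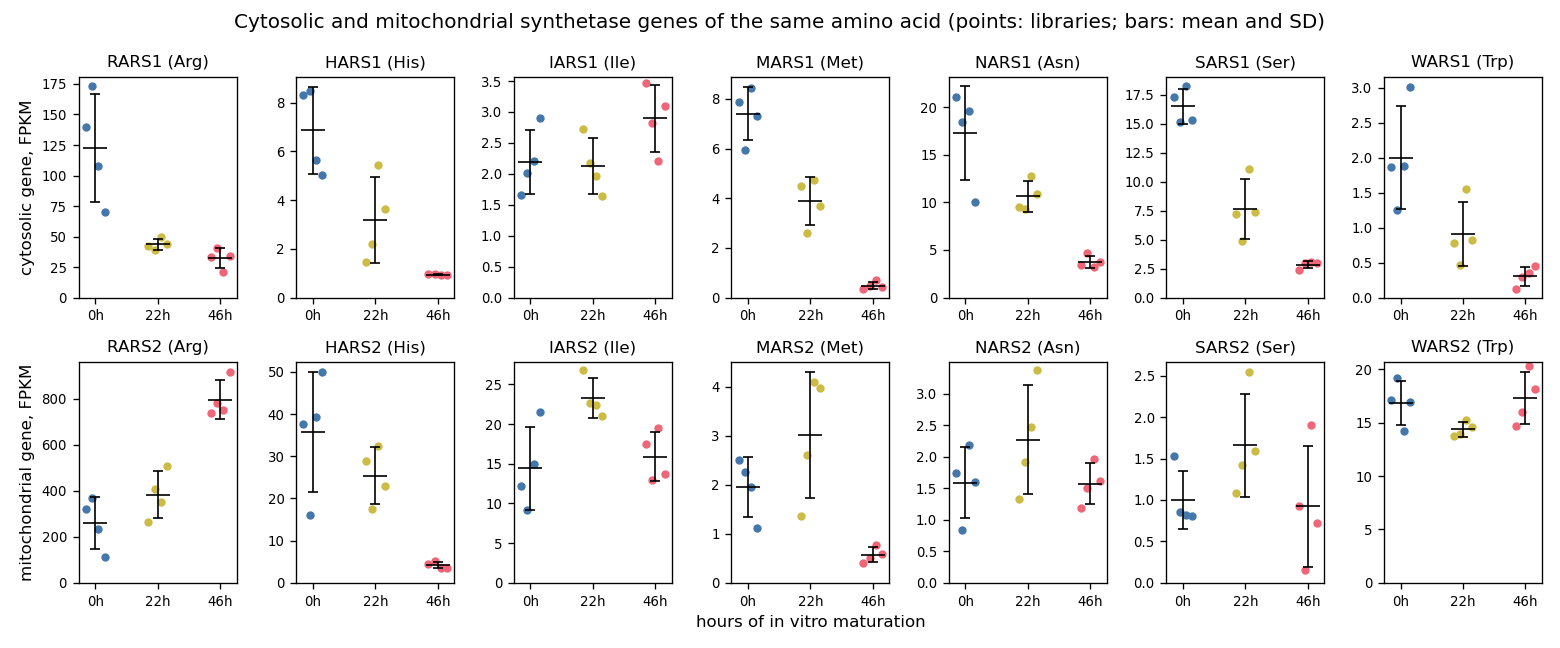
FPKM of the cytosolic (upper row) and mitochondrial (lower row) gene of 7 amino acids at 0h, 22h and 46h; points are libraries and bars the mean and SD (n = 4), each panel with its own axis from 0. RARS1 falls while RARS2 rises, HARS1 and HARS2 both fall, and WARS2 stays between 13.7 and 20.3 FPKM.

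In the first interval, 22h against 0h, 13 of the 24 genes passed, 2 higher (KARS1 and IARS2, the mitochondrial isoleucine enzyme) and 11 lower, against 26.7% of all genes (7.84% higher, 18.9% lower). The median log2 fold change was -0.44, and -0.00 over all genes. Among the falls on the log2(FPKM + 1) scale were those of YARS1 (-1.54 ± 0.21 SE, limma adjusted p = 0.00012), RARS1 (-1.40 ± 0.26, adjusted p = 0.00113) and SARS1 (-1.06 ± 0.19, adjusted p = 0.00101). IARS2 rose from 14.4 ± 5.24 to 23.2 ± 2.52 FPKM (SD, n = 4; log2 0.71, adjusted p = 0.0262), with overlapping libraries, and its gene overlaps RAB3GAP2 on the other strand. That call was lost with no filter (limma adjusted p = 0.0562), with only these stages fitted (0.0527), and without 0h replicate 1 (0.0666) or 2 (0.0766) or 22h replicate 1 (0.0595) or 2 (0.0534). KARS1 fell below the fold threshold without 0h replicate 4 (log2 0.53). RARS2 did not pass here (log2 0.65, 95% interval -0.02 to 1.31, adjusted p = 0.124), but did under quantile normalization (0.77, adjusted p = 0.0486). The libraries did not overlap for 1 gene that was higher and 7 that were lower, against 28.9% of all genes. Without 22h replicate 2 the count was 8, and without 0h replicate 4 it was 9. Under quantile normalization 3 genes were higher and 8 lower.

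In the second interval, 46h against 22h, 15 genes passed, 3 higher, RARS2 and KARS1 among them, and 12 lower, against 42.4% of all genes (9.87% higher, 32.6% lower). The median log2 fold change was -0.59, and -0.26 over all genes. With a pseudocount of 0.1 these medians were -1.10 and -0.32, and under quantile normalization -0.10 and 0.21. Among the falls on the log2(FPKM + 1) scale were those of HARS2 (-2.32 ± 0.29 SE, limma adjusted p = 1.6e-05), MARS1 (-1.70 ± 0.17, adjusted p = 2.01e-06), MARS2 (-1.29 ± 0.24, adjusted p = 0.000433) and NARS1 (-1.29 ± 0.21, adjusted p = 0.00019). HARS2 and MARS2 were not past the thresholds in the first interval, though HARS2 passed as lower there without 0h replicate 2 (log2 -0.74, limma adjusted p = 0.0211) and MARS2 as higher without 22h replicate 1 (0.63, adjusted p = 0.0299). RARS1 was not past them in the second (log2 -0.45, 95% interval -1.01 to 0.10). The libraries did not overlap for 3 genes that were higher and 13 that were lower, against 48.6% of all genes. Under quantile normalization 6 synthetase genes were higher and 5 lower. KARS1 was below the fold threshold on the TPM scale (log2 0.51) and without 22h replicate 1 (0.52) or 46h replicate 3 (0.50).

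The 12 genes under a mean of 1 FPKM, 3 cytosolic and 9 mitochondrial, were compared on the same log2 scale by an exact permutation test, two-sided, with 4 against 4 libraries. The highest value in any library was 1.98 FPKM, of YARS2 at 46h. Of 36 exact tests 8 had p = 0.0286, the smallest possible, and none passed Benjamini-Hochberg adjustment over the 36 (0.129 at the lowest). That p means no overlap between the libraries, which held for 2 of 12 genes at 22h against 0h, 3 at 46h against 22h and 3 at 46h against 0h, against 5.58%, 10.2% and 17.0% of all genes under the same mean whose values varied. YARS2, the mitochondrial tyrosine enzyme, went from 0.55 ± 0.40 FPKM at 0h to 1.37 ± 0.47 at 46h (SD, n = 4) with no overlap. The YARS2 gene shares bases with DNM1L on the opposite strand, where the reads of the genes cannot be told apart. FARSA, a subunit of the cytosolic phenylalanine enzyme, went from 0.93 ± 0.39 to 0.09 ± 0.04 FPKM, also with no overlap. CARS1 and VARS1, the cytosolic cysteine and valine enzymes, were listed at 0 in every 46h library and at no more than 0.26 and 0.34 FPKM at 0h. PARS2, for mitochondrial proline, was above 0 in 2 libraries only. In limma with the filter dropped, 9 of the 36 synthetase genes passed at 22h against 0h, 14 at 46h against 22h and 20 at 46h against 0h. Of these, 8, 13 and 18 had also passed with the filter, and the rest were genes under it. The share of all genes past the thresholds without the filter was not computed.

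All 3 scaffold genes of the multisynthetase complex fell between 0h and 46h, beside 39.1% of all genes tested. AIMP1 went from 176 ± 56.6 FPKM to 17.8 ± 1.06 (SD, n = 4; log2 -3.19, limma adjusted p = 4.33e-08), AIMP2 from 22.1 ± 5.65 to 1.98 ± 0.90 (-2.96, adjusted p = 8.7e-07) and EEF1E1 from 36.6 ± 2.79 to 3.73 ± 0.45 (-3.00, adjusted p = 1.01e-08). On the log2(FPKM + 1) scale the range over the 8 complex enzymes tested was from -2.50 (MARS1) to 1.24 (KARS1), but with a pseudocount of 0.1 MARS1 was at -3.70, and the difference between scaffold and enzymes was not tested.

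Genes that work beside the synthetases were mixed, and their counts at 46h against 0h stand beside 55.9% of all genes past the thresholds, 16.8% higher and 39.1% lower. Of 10 relatives, 7 were tested, of which 4 passed (57.1%). DTD2, which removes wrong residues from tRNA, rose (log2 0.94), while PSTK, which acts in selenocysteine charging (-1.74), the D-residue editing gene DTD1 (-1.80) and AARSD1, a free editing domain (-2.07), fell. QRSL1, which makes mitochondrial glutamine-tRNA, MTFMT, which formylates the mitochondrial initiator tRNA, and SEPSECS, the last step of selenocysteine charging, were at 0.31, 0.46 and 0.02 and did not pass. Of 23 genes of tRNA maturation and export, 14 were tested, of which CLP1 (1.12) and XPOT, the tRNA exporter (0.78), rose and 9 fell (11 of 14 past the thresholds, 78.6%). PRORP, the protein that cuts mitochondrial tRNA precursors, fell from 682 ± 34.6 to 10.8 ± 0.67 FPKM (SD, n = 4; log2 -5.85, limma adjusted p = 1.3e-11), and its partners TRMT10C (-4.16) and HSD17B10 (-1.31) fell too. The tRNA ligase RTCB fell by 4.10 on the log2 scale, and the median of the list was -1.92.

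In many cells uncharged tRNA activates the kinase GCN2 (EIF2AK4), and ATF4 then raises a set of genes that includes several cytosolic synthetases. No identifier matched ATF4. Of the 17 genes listed for this amino acid response, 8 were tested and 6 passed at 46h against 0h (75.0%). EIF2AK4 (log2 0.91), PSPH (1.86) and SLC7A11 (0.84) rose while ASNS (-4.60), PSAT1 (-2.37) and CHAC1 (-1.48) fell. ASNS, asparagine synthetase, went from 915 ± 67.5 to 37.4 ± 7.54 FPKM (SD, n = 4). The letters TGATGNAA, to which ATF4 with its partners binds, were found on either strand in 4 of 35 synthetase promoters (AARS1, CARS1, TARS1 and YARS1) and in 2.80% of all promoters. AARS1 and YARS1, which fell, are printed for this match, the former at chr6:13321374-13321673 and the latter at chr6:89118788-89119087, both on the minus strand of Sscrofa11.1, with TGATGNAA (as its reverse complement where it lies on the other strand), CCAAT and CCGGAAG in capitals.
AARS1: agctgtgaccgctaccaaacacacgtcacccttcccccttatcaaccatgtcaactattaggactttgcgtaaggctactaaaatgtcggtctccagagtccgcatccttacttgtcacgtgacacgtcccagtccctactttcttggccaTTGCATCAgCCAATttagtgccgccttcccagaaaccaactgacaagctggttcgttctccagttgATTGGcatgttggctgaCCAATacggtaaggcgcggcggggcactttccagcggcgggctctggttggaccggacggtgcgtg
YARS1: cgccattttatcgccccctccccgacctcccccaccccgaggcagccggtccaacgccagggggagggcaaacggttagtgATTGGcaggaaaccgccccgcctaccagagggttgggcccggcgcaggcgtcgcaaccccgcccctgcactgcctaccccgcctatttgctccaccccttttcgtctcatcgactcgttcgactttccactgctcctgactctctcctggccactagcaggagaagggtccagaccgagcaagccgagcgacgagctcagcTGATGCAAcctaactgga
AARS1, the cytosolic alanine enzyme, went from 3.59 ± 0.97 FPKM at 0h to 0.77 ± 0.06 at 46h (SD, n = 4; log2 -1.35, limma adjusted p = 1.17e-05), while TARS1 with the same letters did not pass and CARS1 was under the filter. The letters CACGTG, an E-box, were in 3 of the 35 promoters and in 7.92% of all.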

How the data were processed

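Transcripts of pooled porcine oocytes were sequenced in 12 libraries. The authors trimmed the reads, aligned them with STAR to Sscrofa11 and deposited FPKM from RSEM, 1 value per Ensembl gene with 2 decimals; their counts were not used here. The labels' processing notes also name FastQC, Trim Galore and HTSeq. The design text gives 24h where the labels give 22h. Names came from the reference gene table (15029 identifiers) and the study's supplementary gene table (170). Values were taken as log2(FPKM + 1), with a pseudocount of 1 FPKM, and compared with limma (version 3.58.1, R version 4.3.3; eBayes with trend, stage as the only factor, all 12 libraries, the 7013 genes whose mean reached 1 FPKM), two-sided, with Benjamini-Hochberg adjustment over those genes. The other genes were compared by exact permutation (70 arrangements). The fit was tested on simulated data, with no result of that test reported here. Fold changes on this scale understate those of low genes. Sequences and positions are from RefSeq Sscrofa11.1, matched by symbol, and the files give no coordinates. Per-library values are given for the 12 genes with the largest change at 46h against 0h and the 4 with the highest mean, and for amino acids whose enzymes passed in opposite directions. The values of 1 gene, which the counts include, are not reported here. The members, lists and tests were chosen with earlier results of these data known. As alternatives, each library was left out, the replicate number was fitted as a block, the fit was limited to the stages compared or made without the trend, the pseudocount was set to 0.1, the filter was dropped or raised to 5 FPKM, and the scaling was changed to TPM (also leaving out the genes of mitochondrial DNA), median of ratios or quantile normalization. The supplementary tables' comparisons hold the authors' results and were not used. Tables and figures used scipy 1.17.1, pandas 2.3.3, numpy 2.4.6 and matplotlib 3.10.9 under Python 3.11.15.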

Additional observations from a re-analysis of the deposited data

Results flagged for a closer look

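Each of the 24 genes tested was checked in each stage, 72 groups of 4 libraries, on the log2(FPKM + 1) scale. The check was for a library set far apart from the other 3 for their range (Dixon's 95% criterion), which chance gives in about 1 of 20 groups. On this scale it was found for 2. SARS1 had 2.36 FPKM in 46h replicate 1, below the 2.99 to 3.04 FPKM of the other 46h libraries. SARS2, the mitochondrial serine enzyme, had 1.53 FPKM in 0h replicate 1, above the 0.81 to 0.85 FPKM of the other 0h libraries. On FPKM itself, 0h replicate 4 of QARS1 (8.33, others 3.22 to 3.95) and of CARS2 (6.51, others 1.77 to 2.46) also stood apart.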

How the results depend on the processing

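No gene past the thresholds changed direction under the alternatives run. With a mean of at least 5 FPKM, which left 11 synthetase genes to test, 5 passed at 22h against 0h, 6 at 46h against 22h and 8 at 46h against 0h. The share of all genes past the thresholds was computed for the main fit only. Counts under the alternatives, quantile normalization included, thus show only what became of the synthetase calls. Leaving out each library in turn gave 8 to 13, 12 to 16 and 18 genes, with the lowest, 8, without 22h replicate 2. Under every alternative that tested them, 6 of 13 calls were kept at 22h against 0h (HARS1, LARS1, MARS1, RARS1, SARS1 and YARS1), 7 of 15 at 46h against 22h (HARS2, MARS1, MARS2, NARS1, RARS2 and SARS1 among them) and 15 of 18 at 46h against 0h, where EPRS1, WARS1 and MARS2 were lost in some. For the ratios of cytosolic to mitochondrial genes, a pseudocount of 0.1, added after seeing the data, left 0, 0 and 0 of 7 amino acids with an adjusted exact permutation p under 0.05, against 3, 5 and 5, with 3, 5 and 4 at an unadjusted p under 0.05. For genes under the filter, 8 of 36 exact tests had p = 0.0286 with either pseudocount, and 3 against 4 libraries cannot go below 0.0571. The replicate numbers did not pair the libraries, since libraries of one number correlated between -0.47 and 0.38 after removal of the stage means and 3 of 12 correlated best with their own number. These 3 were between 22h and 46h, where the correlations of the same number were 0.38, 0.01, 0.21 and 0.13, not all over 0.1. With the replicate number as a block, 11, 15 and 18 genes passed, and NARS1 and GARS1 were lost at 22h against 0h. Read depth is unknown, so the precision of the scarce synthetase transcripts rests on the 4 libraries of a stage.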
